A study of Mus musculus with 6 samples.

Results

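The 42 genes described here encode the machinery of mitosis: the kinase that starts it, the checkpoint that holds it, the kinetochore and spindle that move the chromosomes, and the proteins that cut the cell at its end. They were taken by symbol from a table of 24091 mouse genes, all 42 were found, and all 42 had enough counts to be among the 13413 genes tested. These genes and the gene lists below were chosen with earlier results of these data known. The RNA came from hematopoietic stem cells (HSCs), which sit in the bone marrow and can rebuild all blood lineages. The cells were wild type and were sorted without lineage markers or CD48 and with Sca-1, c-Kit and CD150. The 3 aged libraries, aged 1 to aged 3, are from animals 20 months old, and the 3 young libraries, young 4 to young 6, from animals 2 months old, with no other treatment named. The samples were pools, from 4 aged and 30 young mice according to the study's design, which does not say whether these numbers are per sample or per group. The p-values therefore measure the spread between pools, part of which may be technical.

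A cell enters mitosis when cyclin-bound Cdk1 becomes active. Each chromosome then builds a kinetochore on its centromere, and microtubules of the spindle attach to it. Unattached kinetochores keep the spindle assembly checkpoint on, which holds back Cdc20, the activator of the anaphase-promoting complex (APC/C). Once the checkpoint is off, APC/C marks securin and B-type cyclins for destruction, separase opens the cohesin rings, the sister chromatids part and cytokinesis divides the cell. RNA of many of these genes is made mainly in G2 and mitosis, so a resting cell carries little of it. Most HSCs are at rest at any moment.

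Total counts ran from 16452829 in young 4 to 21918658 in young 6, and the lowest count of any of the 42 genes was 31, in aged 3. Aged 2 had counts in 20918 genes, and the other libraries in 16084 (young 4) to 17057 (aged 3). Young 5 and young 6 were the closest pair (Pearson's r of log2 CPM across genes 0.993), young 4 stood apart from them (0.955 and 0.952), and aged pairs ran from 0.968 to 0.986. The pair of young 5 and young 6 still differed beyond counting noise, with a chi-square of 11.1 per degree of freedom, and every other pair differed more. Pairs of different age ran from 0.890 to 0.961.

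Aged HSCs had less RNA of most of these genes. In sum the 42 genes stood at 2609, 2461 and 1231 CPM (counts relative to library size, scaled by TMM) in aged 1 to aged 3, against 8710, 5678 and 5344 CPM in young 4 to young 6. The sums do not overlap, and the aged mean of 2100.2 ± 757 CPM was 3.13-fold lower than the young mean of 6577 ± 1855 CPM (SD, n = 3 each). As a plain share of all counts the genes took 0.281%, 0.256% and 0.132% in the aged libraries, against 0.666%, 0.592% and 0.556% in the young ones. In RNA of many cells, fewer dividing cells and less of these RNAs per cell cannot be told apart.

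By edgeR's quasi-likelihood test, with p-values adjusted over all tested genes and a threshold of 0.05, 16 of the 42 genes fell in aged cells (38.1%) and 0 rose. The background was 1.5% called lower and 4.26% called higher among all tested genes. As the 42 genes were chosen with earlier results of these data known, their share beside the background is a description. A further 13 had adjusted p-values between 0.05 and 0.06, and 38 were under 0.10. All 42 log2 fold changes, aged minus young, were negative, with a median of -1.73, where the median of all tested genes was 0.04. At an unadjusted p under 0.05, 40 were lower, against 11.1% of all tested genes. For 40 of the 42, every aged library lay below every young one, as it did for 17.6% of all tested genes. The exceptions were Pttg1 and Espl1. The fold ran from 1.15 to 4.61, and was over 2 for 38 genes, over 3 for 29 and over 4 for 6.

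The calls depended on the libraries used. Without young 4, 11 genes were called lower, all among the 16 (background 2.54%), and the median log2 fold change was -1.55. Without aged 1 the only call was Incenp, at an adjusted p of 0.0375 (background 0.262%). Without aged 2, aged 3, young 5 or young 6, edgeR called 0, while 38 or 39 of the 42 were lower at an unadjusted p under 0.05 in each of these fits; the background there was 0.0441%, 0.022%, 0.0218% and 0.0364%. With all libraries, DESeq2 called 38 lower (background 6.9%) and limma-voom 24 (background 1.77%), or 41 with quality weights (background 13.2%). Other scalings gave 19 by median ratios (background 1.61%), 23 by upper quartiles (background 1.58%) and 9 with library totals alone (background 0.992%). With no filter on low counts 36 were called (background 1.57%), at 5 CPM or more in 3 libraries 6 (background 0.751%), with robust empirical Bayes 12 (background 1.23%), against a fold of 1.5 none (background 0.0969%), and without both young 4 and aged 2 only Ect2 (background 1.6%).

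**Figure D1:**
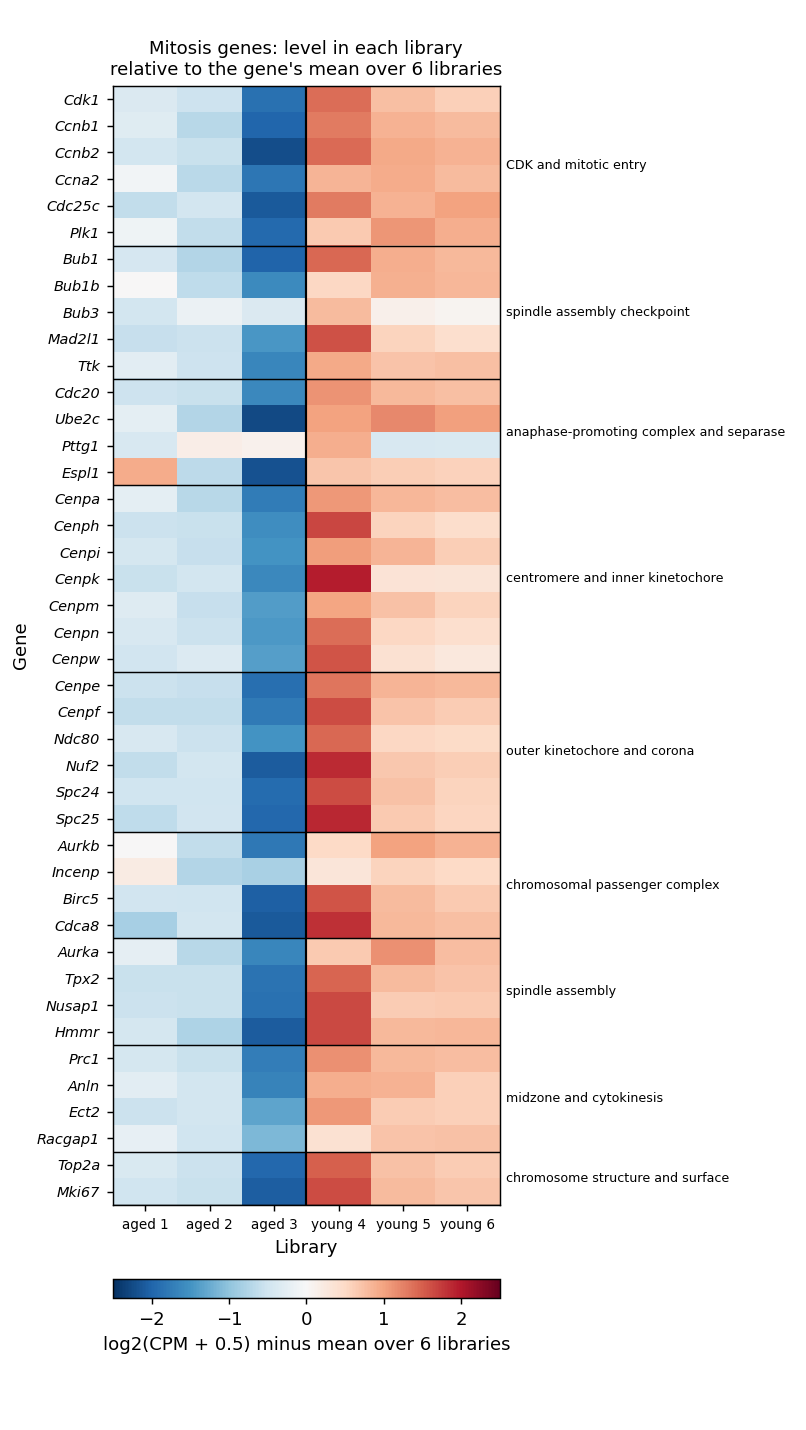
Level of each of the 42 genes (rows, grouped by role) in each library (columns, aged left, young right), as log2(CPM + 0.5) minus its mean over the 6 libraries. Aged 3 is the lowest column for 40 genes and young 4 the highest for 33, and the rows of Pttg1 and Espl1 differ from the rest.

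**Figure D2:**
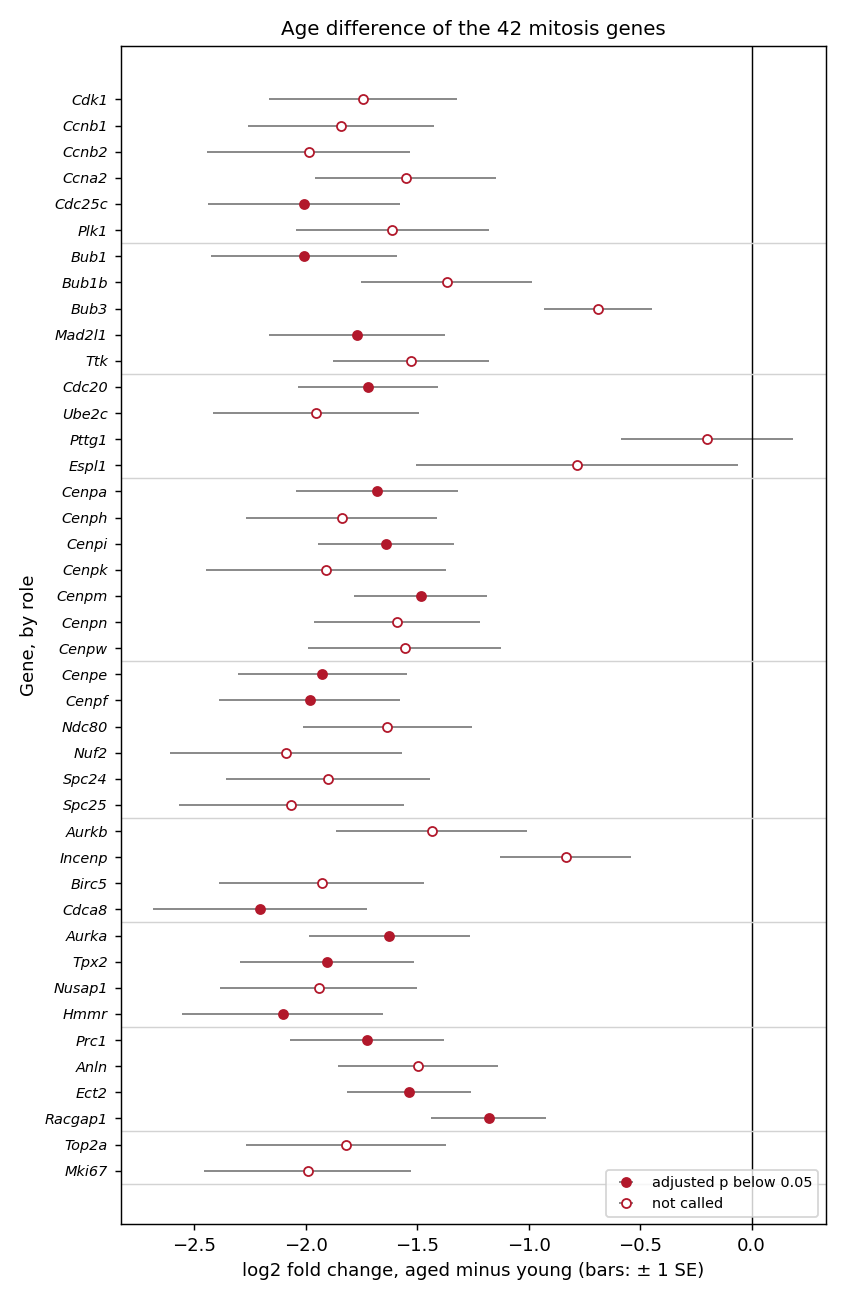
Log2 fold change, aged minus young, of each gene by role, with bars of 1 SE, from edgeR's fit of 3 aged and 3 young libraries. All 42 points lie below 0, the 16 filled ones passed an adjusted p of 0.05, and Pttg1, Bub3, Espl1 and Incenp lie nearest to 0.

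Many promoters of mitotic genes carry a CHR element, with the letters TTTGAA, and CCAAT boxes, bound by NF-Y. DREAM and MuvB complexes act at the CHR to repress these genes in resting cells and to activate them in G2. The promoters of the 42 genes were searched on both strands, from 250 bases before to 50 bases after each start in RefSeq (GRCm38.p6). The letters were TTTGAA, which reads TTCAAA on the other strand, and CCAAT, which reads ATTGG there. The genes were chosen for their role in mitosis, with earlier results of these data known. The shares below therefore describe the list and not the age difference. Promoters were found for 36 of the 42 genes, 41 in all. TTTGAA was in 27 of the 41 (65.9%), against 17.9% of all 32851 promoters in the table, and CCAAT in 34 (82.9%), against 37.4%. Both were in 25 (61.0%), against 6.95%. Some windows of a gene overlap, so the 34 matches to TTTGAA are 30 distinct sites, with those of Bub3, Ect2 and Prc1 counted in each window. Of the 34 matches, 28 lay from 100 bases upstream to the window's end, with a median position of -7, counted to the 5′ end of the match with the gene's start as 1. The 24 genes with TTTGAA had a median log2 fold change of -1.66 with 9 called, and the 12 without it -1.88 with 5 called. Among all tested genes 1.5% were called lower. A match is a description of letters, not a measured binding site.

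The promoters of Cdc20 and Ccnb2 hold both motifs on the gene's strand, Cdca8 has its CCAAT matches on the other strand and the deepest fall, and Birc5 has neither motif in the window. Each is 300 bases, 5′ to 3′ on the gene's strand, with matches to either motif in capitals.
Cdc20 (chr4:118437294-118437593, minus strand): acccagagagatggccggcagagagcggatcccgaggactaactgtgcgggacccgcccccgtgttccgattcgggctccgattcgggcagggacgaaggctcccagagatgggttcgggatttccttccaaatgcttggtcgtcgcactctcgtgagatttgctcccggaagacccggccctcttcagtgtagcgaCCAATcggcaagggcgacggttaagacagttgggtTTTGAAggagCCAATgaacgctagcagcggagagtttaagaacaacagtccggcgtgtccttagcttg
Ccnb2 (chr9:70421505-70421804, minus strand): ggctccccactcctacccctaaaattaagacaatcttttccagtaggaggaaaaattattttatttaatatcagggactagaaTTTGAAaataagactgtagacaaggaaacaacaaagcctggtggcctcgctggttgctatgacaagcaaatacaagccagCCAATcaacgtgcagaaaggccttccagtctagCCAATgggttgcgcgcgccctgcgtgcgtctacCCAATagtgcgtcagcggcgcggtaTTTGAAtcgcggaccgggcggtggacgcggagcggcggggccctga
Cdca8 (chr4:124936868-124937167, minus strand): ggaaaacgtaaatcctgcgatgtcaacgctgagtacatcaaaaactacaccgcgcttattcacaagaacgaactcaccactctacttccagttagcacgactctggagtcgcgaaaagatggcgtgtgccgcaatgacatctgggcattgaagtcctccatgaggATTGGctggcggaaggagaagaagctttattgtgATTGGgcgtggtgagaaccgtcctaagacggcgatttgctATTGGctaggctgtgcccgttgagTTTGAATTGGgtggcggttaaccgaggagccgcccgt
Birc5 (chr11:117848987-117849286, plus strand): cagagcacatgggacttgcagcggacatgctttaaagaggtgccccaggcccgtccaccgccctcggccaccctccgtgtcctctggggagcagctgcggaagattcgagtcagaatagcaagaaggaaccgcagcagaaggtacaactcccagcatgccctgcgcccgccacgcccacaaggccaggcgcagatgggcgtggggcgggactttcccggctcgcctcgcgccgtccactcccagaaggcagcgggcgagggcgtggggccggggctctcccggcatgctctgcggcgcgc
In Cdc20 TTTGAA begins at -18 and the CCAAT matches at -53 and -8. In Ccnb2 TTTGAA begins at -167 and 5, and the CCAAT matches at -87, -54 and -21. In Cdca8 TTTGAA begins at 14, and ATTGG at -85, -51, -11 and 19, where the last overlaps the CHR.

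For the counts by role from here on, the background was 1.5% called lower among all tested genes. Of the 6 genes of mitotic entry, 1 fell and the other 5 did not pass the test, with folds of 2.93 to 4.02. Cdc25c encodes the phosphatase that removes the inhibitory phosphates from Cdk1. It stood at 13.6, 15.1 and 4.55 CPM in aged 1 to 3, against 52.6, 38.6 and 42.5 CPM in young 4 to 6. The groups were far apart, and the log2 fold change was -2.01 ± 0.43 (SE), with an adjusted p of 0.0443. Ccnb1 and Ccnb2 encode the B-type cyclins that activate Cdk1. Ccnb1 stood at 101, 76.8 and 30.8 CPM in aged libraries, against 306, 226 and 216 CPM in young ones, with an adjusted p of 0.0501. Ccnb2 stood at 104, 96.9 and 30.3 CPM in aged libraries, against 380.4, 275 and 261 CPM in young ones, with an adjusted p of 0.0508. Both cyclin genes just missed the threshold although no aged library came near a young one. Cdk1 itself stood at 59.1, 53.2 and 20.6 CPM in aged libraries, against 202, 128 and 115 CPM in young ones (adjusted p = 0.0591). Ccna2, cyclin A2, which acts in S phase and G2, averaged 29.0 ± 15.8 CPM in aged libraries against 84.9 ± 4.13 CPM in young ones (adjusted p = 0.0704; it overlaps Exosc9 on the other strand). Plk1, the polo-like kinase of entry and spindle assembly, averaged 35.3 ± 19.5 CPM in aged libraries against 108 ± 16.6 CPM in young ones (adjusted p = 0.0756); its interval in the table overlaps Dctn5 on the same strand, so its reads are uncertain.

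Of the 5 genes of the spindle checkpoint, Bub1 and Mad2l1 fell and 3 did not pass. Bub1 encodes the kinase that brings checkpoint proteins to the kinetochore (chromosome 2 of mm10, from 127800200 to 127831859 on the minus strand). It stood at 29.4, 23.6 and 9.42 CPM in aged 1 to 3, against 107, 74.1 and 69.9 CPM in young 4 to 6. The highest aged value was well below the lowest young one (log2 fold change -2.01 ± 0.42, adjusted p = 0.0409). Mad2l1 encodes MAD2, which binds and holds Cdc20. It stood at 62.2, 63.3 and 33.2 CPM in aged libraries, against 280.0, 137 and 124 CPM in young ones (3.41-fold lower, adjusted p = 0.0480). Young 4 carried much of that difference, but the call was also made without it (log2 fold change -1.33, adjusted p = 0.0415). Of the 6 edgeR fits with 1 library left out, this was the only 1 that called Mad2l1. Its adjusted p-values in these fits ran up to 0.158. Ttk, the MPS1 kinase that starts checkpoint signalling, stood at 22.2, 18.5 and 8.26 CPM in aged libraries, against 52.0, 44.0 and 45.2 CPM in young ones (adjusted p = 0.0516). Bub1b, which encodes BUBR1 of the mitotic checkpoint complex, averaged 40.5 ± 21.0 CPM in aged libraries against 104 ± 14.2 CPM in young ones (adjusted p = 0.0841).

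Bub3, the checkpoint protein that docks BUB1 and BUBR1 on the kinetochore, differed less than its partners. It stood at 260.5, 323 and 281 CPM in aged 1 to 3, against 621, 396 and 376 CPM in young 4 to 6. The groups do not overlap, but young 4 is far above the other young libraries, and the 1.61-fold difference did not pass (log2 fold change -0.69 ± 0.24, 95% interval -1.26 to -0.12, adjusted p = 0.141). Per kb of gene length Bub3 had the highest level of the 42 genes in both groups, at 137 CPM per kb in aged and 221 CPM per kb in young cells. Bub1 stood at 4.32 CPM per kb in aged and 17.4 CPM per kb in young cells.

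The 4 genes of anaphase onset behaved unalike. Cdc20, which carries substrates to APC/C (chromosome 4, 118432901 to 118437343, minus strand), stood at 93.5, 91.1 and 43.1 CPM in aged 1 to 3. In young 4 to 6 it stood at 291, 234 and 226 CPM, so that it fell in aged cells by 1.72 on the log2 scale (SE 0.31, adjusted p = 0.0323). Its interval overlaps Elovl1 on the other strand, whose reads are not told apart by this library kit. Ube2c, the ubiquitin-conjugating enzyme that works with APC/C, stood at 42.8, 30.5 and 10.3 CPM in aged libraries, against 103, 117 and 103 CPM in young ones (3.88-fold lower, adjusted p = 0.0561). The young libraries were close together here, and the aged ones were spread over 4-fold.

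Pttg1 and Espl1 were the 2 genes whose groups overlapped. Pttg1 encodes securin, the inhibitor of separase. It stood at 61.5, 91.4 and 87.1 CPM in aged 1 to 3, against 153, 60.9 and 62.2 CPM in young 4 to 6. Aged 2 and aged 3 lay above young 5 and young 6, and only young 4 was higher. The log2 fold change was -0.20 ± 0.39 (95% interval -1.11 to 0.71, adjusted p = 0.762), and without young 4 its sign turned to 0.36 (adjusted p = 0.292). Espl1 encodes separase, the protease that cuts cohesin. It stood at 16.3, 5.11 and 1.44 CPM in aged 1 to 3, against 13.8, 13.0 and 12.6 CPM in young 4 to 6. Aged 1 was above all young libraries, and aged 2 and aged 3 were below them. The log2 fold change was -0.78 ± 0.72 (95% interval -2.48 to 0.92, adjusted p = 0.504), and without aged 1 it was -2.01 (adjusted p = 0.108). Across the 6 libraries, Pearson's r of log2 CPM with the mean of the 42 genes was 0.167 for Pttg1, 0.818 for Bub3, 0.832 for Espl1 and 0.847 for Incenp, and from 0.924 to 0.999 for the other 38. Each gene is part of that mean, and libraries of the 2 ages differ in it.

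**Figure D3:**
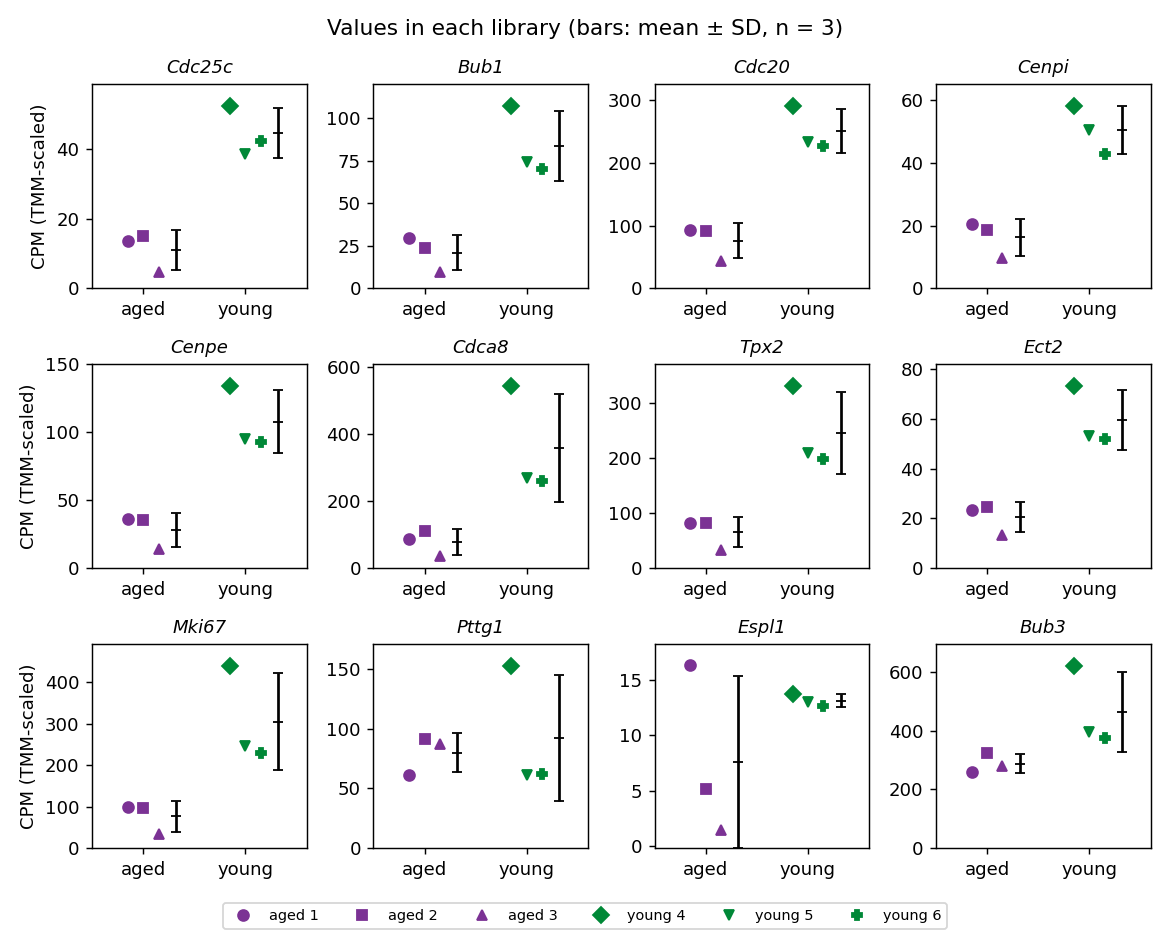
CPM of 12 of the genes in each library (points, aged left, young right; own linear scale per panel), with the mean and 1 SD (n = 3) beside each group; the genes were picked after their values were seen, to show roles and exceptions. The aged points lie below the young ones except for Pttg1 and Espl1, where they overlap, and the SD bar of Espl1 in aged cells runs slightly below 0.

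Of the 7 genes of the inner kinetochore, 3 fell and 4 did not pass, with folds from 2.80 to 3.76. Cenpa encodes the histone H3 variant that marks the centromere (chromosome 5, 30666886 to 30674837, plus strand). It stood at 77.1, 56.1 and 27.0 CPM in aged 1 to 3, against 195, 163 and 156 CPM in young 4 to 6 (log2 fold change -1.68 ± 0.36, adjusted p = 0.0449). Cenpi, Cenpm, Cenph, Cenpk, Cenpn and Cenpw encode subunits of the network that sits on CENP-A chromatin. Cenpi (chromosome X, 134308084 to 134363104, plus strand) stood at 20.6, 18.5 and 9.61 CPM in aged libraries, against 58.4, 50.6 and 43.0 CPM in young ones (log2 fold change -1.64 ± 0.31, adjusted p = 0.0335). Cenpm stood at 32.5, 27.2 and 15.04 CPM in aged libraries, against 80.8, 68.0 and 60.3 CPM in young ones (log2 fold change -1.48 ± 0.30, adjusted p = 0.0382). For these called genes young 4 was the highest library by a small margin.

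The uncalled genes of the inner kinetochore had larger gaps between young libraries. Cenpk stood at 25.7, 27.2 and 12.0 CPM in aged 1 to 3, against 149, 47.9 and 47.7 CPM in young 4 to 6 (adjusted p = 0.0847; it overlaps Ppwd1). Its log2 fold change of -1.91 became -1.16 without young 4. Cenpw stood at 29.7, 32.7 and 15.8 CPM in aged libraries, against 125, 54.4 and 50.3 CPM in young ones (adjusted p = 0.0827). Cenph averaged 20.6 ± 7.38 CPM in aged libraries against 73.7 ± 38.0 CPM in young ones (adjusted p = 0.0534). Cenpn averaged 19.8 ± 6.94 CPM in aged libraries against 59.6 ± 23.8 CPM in young ones (adjusted p = 0.0541).

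Of the 6 genes of the outer kinetochore, 2 fell and 4 did not pass. Cenpe encodes a motor protein that moves chromosomes to the spindle equator (chromosome 3, 135212563 to 135273540, plus strand). It stood at 36.0, 35.1 and 13.8 CPM in aged 1 to 3, against 134, 95.3 and 93.2 CPM in young 4 to 6 (log2 fold change -1.93 ± 0.38, adjusted p = 0.0371). Cenpf, a large coiled-coil protein of the kinetochore, stood at 44.5, 44.6 and 19.8 CPM in aged libraries, against 212, 113 and 106 CPM in young ones (log2 fold change -1.98 ± 0.41, adjusted p = 0.0398). In both genes aged 1 and aged 2 were nearly alike and aged 3 was far below them.

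Ndc80, Nuf2, Spc24 and Spc25 encode the 4 subunits of the NDC80 complex, which grips the microtubule. None passed, with folds of 3.11 to 4.26 and adjusted p-values of 0.0530 for Ndc80, 0.0637 for Nuf2, 0.0584 for Spc24 and 0.0605 for Spc25. Ndc80 stood at 41.6, 37.6 and 19.3 CPM in aged 1 to 3, against 149.8, 79.1 and 77.1 CPM in young 4 to 6. Nuf2 stood at 36.9, 41.4 and 13.0 CPM in aged libraries, against 210.0, 91.0 and 88.0 CPM in young ones. Young 4 was well above the other young libraries for each of the 4 subunits, by 1.92 times their mean for Ndc80 and 2.42 times for Spc25. Per kb, Spc24 had the highest level of the 4, at 38.3 CPM per kb in aged and 143 CPM per kb in young cells, and Ndc80 stood at 15.03 CPM per kb in aged and 46.7 CPM per kb in young cells.

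The chromosomal passenger complex corrects wrong attachments and later acts at the midzone. Of its 4 genes 1 fell. Cdca8 encodes borealin (chromosome 4, 124918465 to 124936917, minus strand). It stood at 86.4, 111 and 35.7 CPM in aged 1 to 3, against 545, 270.3 and 260.2 CPM in young 4 to 6. This was the largest fold of the 42 genes, at 4.61-fold lower (log2 fold change -2.20 ± 0.48, adjusted p = 0.0455). Birc5, which encodes survivin, stood at 66.2, 65.5 and 22.01 CPM in aged libraries, against 278, 161 and 147 CPM in young ones (adjusted p = 0.0574). Aurkb, the kinase of the complex, stood at 61.0, 39.2 and 17.2 CPM in aged libraries, against 84.7, 122 and 111 CPM in young ones (adjusted p = 0.0970). For Aurkb young 4 was the lowest young library, unlike for Birc5 and Cdca8. Incenp, the scaffold, stood at 62.2, 32.4 and 30.7 CPM in aged libraries, against 66.8, 79.8 and 76.8 CPM in young ones. Aged 1 came close to young 4, and the 1.78-fold difference did not pass (log2 fold change -0.83 ± 0.29, adjusted p = 0.141).

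Of the 4 genes of spindle assembly, 3 fell. Tpx2 encodes the protein that activates and targets Aurora A (chromosome 2, 152847964 to 152895321, plus strand). It stood at 81.4, 81.8 and 33.3 CPM in aged 1 to 3, against 331, 208 and 197 CPM in young 4 to 6 (log2 fold change -1.91 ± 0.39, adjusted p = 0.0398). Aurka, Aurora A itself, stood at 40.5, 28.9 and 14.9 CPM in aged libraries, against 74.5, 105 and 80.5 CPM in young ones (log2 fold change -1.62 ± 0.36, adjusted p = 0.0475). Hmmr, a microtubule-binding protein of the spindle pole, stood at 49.3, 39.3 and 15.6 CPM in aged libraries, against 211, 118 and 119 CPM in young ones (log2 fold change -2.10 ± 0.45, adjusted p = 0.0447). In each the aged libraries lay below all young ones, whether young 4 was the highest (Tpx2, Hmmr) or the lowest (Aurka) of its group. Nusap1, which bundles spindle microtubules, averaged 52.8 ± 23.1 CPM in aged libraries against 203 ± 88.1 CPM in young ones (adjusted p = 0.0502; it overlaps Oip5).

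Of the 4 genes of cytokinesis, 3 fell. Ect2, which switches on RhoA at the cell's equator (chromosome 3, 27097222 to 27153878, minus strand), had the smallest adjusted p of the 42 genes. It stood at 23.4, 24.7 and 13.5 CPM in aged 1 to 3, against 73.5, 53.2 and 51.8 CPM in young 4 to 6 (log2 fold change -1.54 ± 0.28, adjusted p = 0.0320). Prc1, which bundles the microtubules of the midzone, stood at 88.9, 81.9 and 36.2 CPM in aged libraries, against 267, 211 and 206 CPM in young ones (log2 fold change -1.73 ± 0.34, adjusted p = 0.0381). Racgap1, which with the kinesin Kif23 forms centralspindlin, stood at 68.1, 55.7 and 35.8 CPM in aged libraries, against 102, 129 and 130.1 CPM in young ones. Its fold of 2.26 was the smallest among the 16 called genes (log2 fold change -1.18 ± 0.26, adjusted p = 0.0455). Anln, the scaffold anillin of the contractile ring, averaged 23.4 ± 10.5 CPM in aged libraries against 66.1 ± 7.53 CPM in young ones (adjusted p = 0.0579).

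Neither of the 2 chromosome genes passed, though both were over 3.5-fold lower. Top2a encodes topoisomerase II alpha, which untangles sister chromatids. It stood at 237, 214 and 79.0 CPM in aged 1 to 3, against 873, 514 and 479 CPM in young 4 to 6 (log2 fold change -1.82 ± 0.45, adjusted p = 0.0622). Mki67 encodes Ki-67, the coat of mitotic chromosomes used as a marker of cycling cells. It stood at 99.97, 97.0 and 33.5 CPM in aged libraries, against 440.4, 247 and 229.7 CPM in young ones (log2 fold change -1.99 ± 0.46, adjusted p = 0.0532). For both genes the drop to aged 3 and the height of young 4 widened the spread within the groups.

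Every role had a negative median. The median log2 fold change was -1.79 for entry, -1.53 for the checkpoint, -1.25 for anaphase onset, -1.64 for the inner and -1.95 for the outer kinetochore, -1.68 for the passenger complex, -1.92 for spindle assembly, -1.52 for cytokinesis and -1.91 for the chromosome genes. Differences between roles were not tested.

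Within each age, libraries differed in a way shared by many of the genes. Aged 3 was the lowest of all 6 libraries for 40 of the 42 genes, against 16.2% of all tested genes, and stood at a median of 0.395 of the mean of aged 1 and aged 2. The TMM factor of young 4 was 0.765, against 1.04 for young 5 and for young 6, which raises every CPM value of young 4 relative to theirs. As a plain share of counts the 42 genes took 0.666% in young 4, against 0.592% and 0.556% in young 5 and young 6. In scaled CPM young 4 was the highest of all 6 for 33, against 35.5% of all tested genes, and stood at a median of 1.46 times the mean of young 5 and young 6. Young 4 was not high throughout. It lay above 1.5 times that mean for 20 genes, against 24.1% of all tested genes, among them Cenpk at 3.11 times, Pttg1, Spc25, Cenpw and Nuf2, and below that mean for 8, against 49.3% of all tested genes: Aurkb at 0.728 times, Plk1, Bub1b, Racgap1, Aurka, Incenp, Ube2c and Ccna2. The GC content of transcripts moved with this. It had a median of 52.0% in the 8 genes and of 45.4% in the 20, with overlapping ranges of 46.1% to 56.0% and 35.8% to 56.3%. Across the 42 genes Pearson's r between GC content and the log2 ratio of young 4 to the other young libraries was -0.54, and it was -0.48 across 10367 tested genes, which share the same libraries and are not independent. Between GC content and the log2 fold change of age, r was 0.29 across the 42 genes and 0.25 across the 10367. The median GC content was 47.1% in the 42 genes and 50.2% in the 10367. When the dependence of each library on GC content and transcript length was removed, 32 of the 42 genes were called lower, 15 of them among the 16 (background 4.49%). The part of GC content in the values of single genes was not tested.

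**Figure D4:**
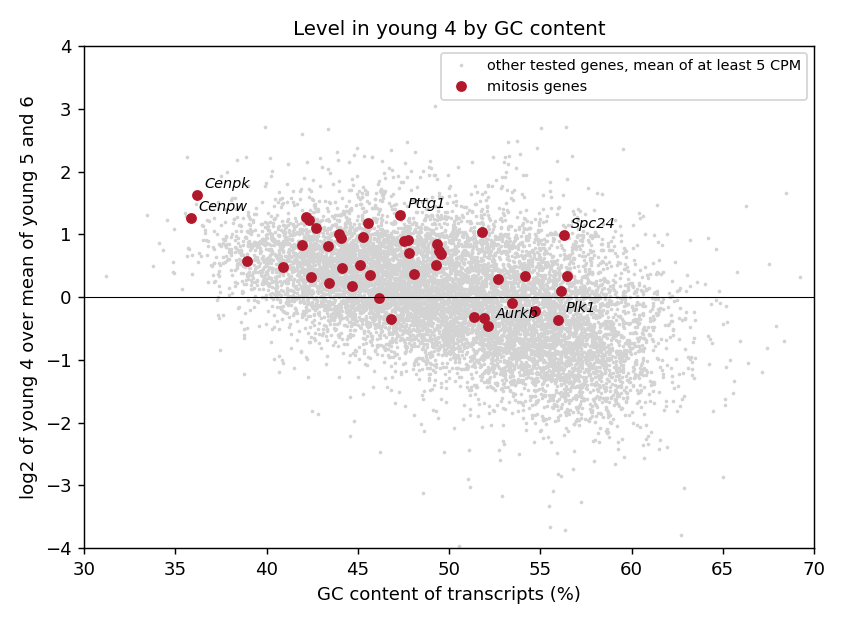
Log2 ratio of CPM in young 4 to the mean of young 5 and young 6 (vertical axis) against the GC content of transcripts in percent (horizontal axis), for the 42 genes (red) and other tested genes with a mean of at least 5 CPM (grey). Cenpk and Cenpw, low in GC content, lie well above 0, and Aurkb and Plk1, higher in GC content, lie below it. Spc24, at a GC content of 56.3%, also lies above 0, with young 4 at 1.99 times the mean of young 5 and young 6.

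Other genes of the same processes, in 6 lists that hold none of the 42, had a smaller median difference. Of 122 tested, 24 fell (19.7%) and 0 rose, with a median log2 fold change of -0.87. The background for this and the lists below was 1.5% called lower and 4.26% called higher among all tested genes. All lists were chosen with earlier results of these data known. Of 30 further kinetochore genes 8 fell, with a median of -1.08. Among them Sgol1, which encodes shugoshin, the protector of centromeric cohesin, stood at 26.6, 25.6 and 12.1 CPM in aged 1 to 3, against 171, 79.8 and 75.4 CPM in young 4 to 6 (5.06-fold lower, adjusted p = 0.0335). Pmf1, a subunit of the MIS12 complex, was 2.54-fold lower, and Cenpo 1.83-fold. Of 23 further genes of centrosome and cytokinesis 9 fell, with a median of -1.47, among them the spindle pole gene Aspm (3.16-fold), Plk4, the kinase of centriole duplication (2.63-fold), and Ckap2 (3.58-fold). Of 18 condensin and cohesin genes 3 fell, with a median of -0.68. These were the condensin subunits Ncaph (3.10-fold), Ncapg2 (2.35-fold) and Ncapg (3.44-fold).

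The medians of the regulator lists lay nearer to 0, though those of DREAM and MuvB and of entry control were close to the -0.68 of condensin and cohesin. Of 17 genes of APC/C and its partners 1 fell, with a median of -0.31: Ube2s, which extends the ubiquitin chains, averaged 7.95 ± 0.642 CPM in aged libraries against 17.2 ± 1.61 CPM in young ones (adjusted p = 0.0289). Fbxo5, which encodes the APC/C inhibitor EMI1, averaged 36.7 ± 13.8 CPM in aged libraries against 75.9 ± 17.5 CPM in young ones (adjusted p = 0.101). Of 18 genes of the DREAM and MuvB complexes and their partners 2 fell, with a median of -0.66: Tfdp1, the partner of E2F factors, by 1.82-fold and Rbl1, which encodes the pocket protein p107, by 1.98-fold. Lin9, a MuvB subunit, was 1.90-fold lower with an adjusted p of 0.0583. Of these 18 genes, 16 had negative log2 fold changes. The most negative did not pass: Mybl1 at -1.71 (overlapping groups, adjusted p = 0.193), Foxm1 at -1.47 (adjusted p = 0.107) and Mybl2 at -1.30 (adjusted p = 0.0597). For Foxm1 and Mybl2 every aged library lay below every young one. Rbl2 went the other way, at 145, 135 and 168 CPM in aged 1 to 3, against 75.4, 104 and 104 CPM in young 4 to 6. Its log2 fold change of 0.66 did not pass (adjusted p = 0.0907). E2f5 was also positive, at 0.45 (adjusted p = 0.420). Of 17 further genes of entry control 1 fell, with a median of -0.67: Bora, a cofactor of Aurora A in activating Plk1, by 2.03-fold. Cdc14a, a phosphatase that opposes Cdk1 in yeast, had a positive log2 fold change of 0.89 (adjusted p = 0.0548).

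**Figure D5:**
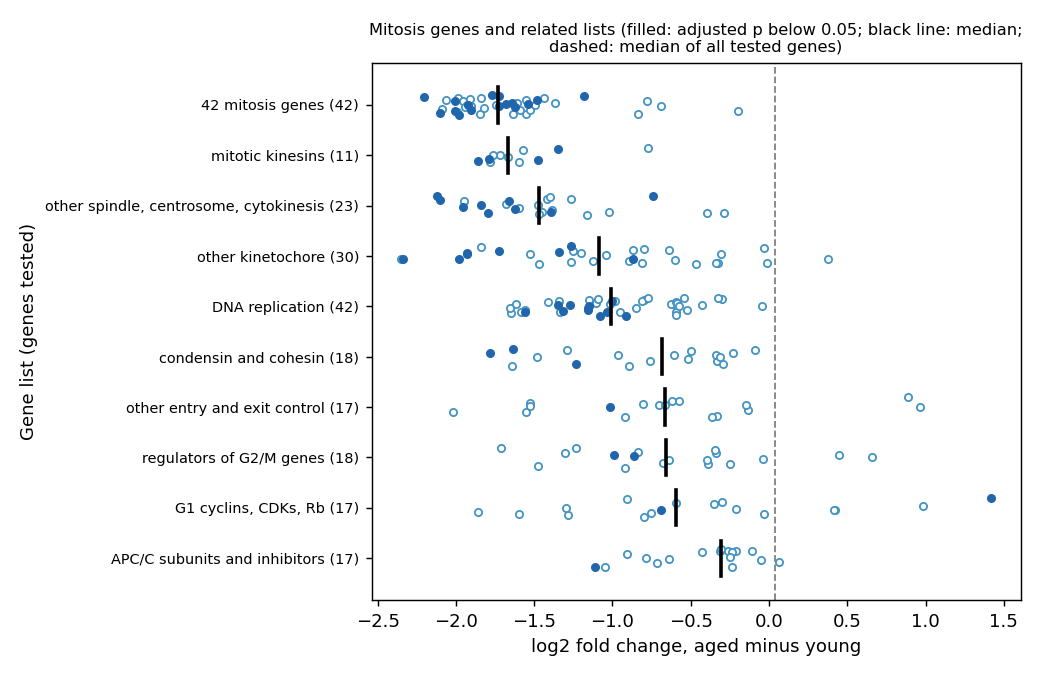
Log2 fold change, aged minus young, of each of the 42 mitosis genes (top row) and of every tested gene in the other lists (points; filled where the adjusted p was below 0.05), with the median of each list as a black line and that of all tested genes as a dashed line. The median is -1.73 for the 42 genes, -0.66 for regulators of G2/M genes (DREAM and MuvB) and -0.31 for APC/C.

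Genes of other steps of the cell cycle, and the kinesins of mitosis itself, give a scale for these values. Of 42 DNA replication genes 11 fell and 0 rose, with a median log2 fold change of -1.01, against -1.73 for the 42 mitosis genes; a test between the lists was not made. Mcm4, of the replicative helicase, was 2.11-fold lower. Of 11 mitotic kinesins 4 fell, with a median of -1.67, among them Kif23 (2.54-fold), Kif18a (2.78-fold) and Kif22 (3.63-fold). Of 17 genes of G1 control 1 fell and 1 rose, with a median of -0.60. Cdk2 fell by 1.61-fold, and Cdkn2c, which encodes the CDK4 and CDK6 inhibitor p18, stood at 23.9, 19.5 and 17.0 CPM in aged 1 to 3, against 8.90, 6.68 and 7.06 CPM in young 4 to 6 (log2 fold change 1.42, adjusted p = 0.0235).

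Markers of the sorted cells and of others were measured beside these genes. Stem cell markers were present in all libraries, with summed levels of 2702 to 3327 CPM in aged and 1301 to 2357 CPM in young cells. Of the 10, 5 were called higher. The background for all markers was 4.26% called higher and 1.5% called lower among all tested genes. The 3 markers of progenitors were all called lower, at 142 to 177 CPM in aged and 260.2 to 300.5 CPM in young cells; Cd48, which the gate leaves out, averaged 1.40 ± 1.04 CPM in aged libraries against 10.8 ± 3.17 CPM in young ones. Progenitors divide more often than HSCs, and the part of this difference in the mitosis values was not tested. Summed granulocyte markers stood at 4.79 to 14.1 CPM in aged and 7.39 to 12.2 CPM in young cells, with none of 4 tested called. Macrophage markers stood at 34.8 to 36.8 CPM in aged and 39.5 to 69.6 CPM in young cells, with none of 7 tested called. Erythroid markers stood at 2344 to 2966 CPM in aged and 1939 to 2885 CPM in young cells, with none of 7 tested called. B-lineage markers stood at 59.8 to 87.4 CPM in aged and 74.3 to 134 CPM in young cells, with none of 2 tested called. Of T and NK markers 2 of 3 tested were called lower and 1 higher (151 to 226 CPM in aged, 108 to 195 CPM in young cells), and Cd8a had 0 counts in all libraries. Megakaryocyte markers stood at 393 to 1220 CPM in aged and 719 to 1143 CPM in young cells, with 1 of 6 called lower, and endothelial markers at 164 to 203 CPM in aged and 112 to 123 CPM in young cells, with 1 of 4 called higher. The part of these types in the mitosis values was not tested.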

How the data were processed

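RNA-seq gene counts of 6 libraries, 3 aged and 3 young, were analysed; groups come from the sample titles. Per the labels' protocols, total RNA was made into SMART-Seq v4 libraries, a kit that amplifies full-length cDNA and does not mark strand, and read on an Illumina HiSeq in single reads of 51 cycles. The submitters' processing notes name Trimmomatic, STAR 2.6.0, HTSeq 0.11.1, edgeR and the build mm10, with no settings; which annotation was used, and how reads were counted, is not given in the sources used here. As deposited by the authors, 1 table holds raw counts per gene with no scaling; 0 per-sample columns were left unused.

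The counts were tested in edgeR 4.0.16 (R 4.3.3): filterByExpr, TMM scaling, estimateDisp, glmQLFit and glmQLFTest with age as the only term, all 6 libraries, and Benjamini-Hochberg adjustment over 13413 genes, which held 99.92% of the counts. CPM are TMM-scaled; folds are linear forms of the fitted log2 values, except those of summed CPM, which are ratios of means. A limit of 3 counts, for counting error only, corresponds to 0.132 to 0.239 CPM. Levels per kb use the table's gene lengths. The members and gene lists were chosen with earlier results of these data known. Named genes are all members, the 3 genes of each other list with the smallest p or some of them, and the 5 most similar in profile. Rbl2, E2f5 and other values singled out were picked after they were seen. GC content came from GENCODE M21 transcripts and promoters from RefSeq. Checked on counts simulated for 13237 genes, the fit called 78 of 97 genes changed 4-fold (80.4%), 6 of 98 changed 2-fold (6.12%) and 8 of 13042 unchanged. Alternatives were other scalings, filters, DESeq2 1.42.0, limma 3.58.1 voom, robust empirical Bayes, a test against a fold of 1.5 and each library left out; the fit with GC content and length trends taken out (splines with 4 degrees of freedom) and the motif share per gene were added after seeing the data.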

Additional observations from a re-analysis of the deposited data

How the results depend on the processing

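Over all tested genes 1.5% were called lower by edgeR's fit, and 0.0969% to 13.2% in the alternatives that kept all 6 libraries. The largest of these shares were 13.2% with quality weights, 6.9% by DESeq2 and 4.49% with the GC content and length trend taken out. The count of mitosis genes called lower was 16 of 42, and that of the other mitosis lists 24 of 122. These were 9 and 15 with no scaling beyond library totals, 36 and 43 with no filter on low counts, 6 and 9 at 5 CPM or more in 3 libraries, 38 and 61 by DESeq2, 24 and 35 by limma-voom, 41 and 85 by limma-voom with quality weights, 0 and 0 against a fold of 1.5, 1 and 12 without both young 4 and aged 2, and 32 and 47 with the GC content and length trend taken out, which was chosen after seeing the data. They were 19 and 26 with median-ratio, 23 and 28 with upper-quartile scaling, and 12 and 18 with robust empirical Bayes. With 1 library left out they ranged from 0 to 11 and from 0 to 25, and the median log2 fold change of the 42 genes from -2.01 to -1.43. The median of all tested genes was 0.20 with no scaling, 0.11 with upper-quartile scaling and 0.27 with no filter. Taking out the GC content and length trend gave 611 genes higher and 590 lower over all tested genes, against 571 and 201. The sign changed for Pttg1 alone: 0.058 with no scaling, 0.44 with quality weights, 0.36 without young 4, 0.24 without both young 4 and aged 2 and 0.0545 with the trend taken out; with single libraries left out it ranged from -0.43 to 0.36, and the cause was not tested. Per gene, TTTGAA was in 66.7% of 36 genes against 20.2% of all, and CCAAT in 80.6% against 41.1%. No paired analysis was possible because aged samples are numbered 1 to 3 and young samples 4 to 6, with no number in common. With 3 libraries a group, changes near 2-fold were seldom recovered in simulated counts. Those counts were drawn gene by gene, with no effect shared across a library's genes, so recovery may differ for genes that move together.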

Other observations

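Outside the lists, the genes whose log2 CPM across the 6 libraries was most like the mean of the 42 mitosis genes were Psrc1, Recql, Prr11, Knstrn and Hmgb2, with Pearson's r from 0.9986 to 0.9992. They were chosen for this likeness, so their direction is a description. Psrc1, a spindle protein gene, averaged 20.7 ± 7.58 CPM in aged libraries against 57.4 ± 9.92 CPM in young ones. Knstrn, which encodes a kinetochore and spindle protein, averaged 43.2 ± 19.8 CPM in aged libraries against 149 ± 30.6 CPM in young ones. Hmgb2, a chromatin protein gene, averaged 270.5 ± 102 CPM in aged libraries against 804 ± 202 CPM in young ones. Prr11 averaged 14.1 ± 6.87 CPM in aged libraries against 51.0 ± 11.8 CPM in young ones, and Recql, a DNA helicase gene, 31.7 ± 7.19 CPM in aged libraries against 56.2 ± 7.30 CPM in young ones.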
